A study of Saccharomyces cerevisiae with 22 samples.

Results

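The arrays of this study carry 6388 gene probes of 70 bases, and for 1062 of them (16.6%) the probe annotation used here gives no gene symbol. These 1062 probes, printed as 2124 of 12776 gene spots, were chosen by that absence alone, and their signal was not used to choose them. Neither the annotation nor the gene table of assembly R64 says which transcript they detect, so they are described by their values and by the named genes whose values were most alike. The other 5326 probes give 5311 named features, and all 6373 features were tested together. The gene table lists 6477 genes, of which 1168 are named by no probe symbol: 729 of 6021 protein-coding genes, all 299 tRNA genes and 75 of 76 snoRNA genes are among them.

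RNA of *Saccharomyces cerevisiae* was measured on 22 arrays. On each, the labelled RNA of a mutant was hybridised together with wild type RNA of strain BY4742, the reference of all arrays. All strains are labelled as BY4742 background. In synthetic complete (SC) medium the deletions *eaf3*Δ, *rco1*Δ, *set2*Δ, *ctk1*Δ, *lrp1*Δ, *rrp6*Δ and *rtt103*Δ and the temperature-sensitive allele *sen1-1* were each on 2 arrays, and the alleles *pcf11-2* and *pcf11-ts2* on 1 array each. In YPD medium *ctk1*Δ and *rpb1-S2A*, a Mat a strain whose polymerase tail lacks the Ser2 positions, were on 2 arrays each. The paper compared the *sen1* and *pcf11* mutants with Mat a wild type strains, whereas here all profiles are set against the BY4742 reference. It grew these mutants at the temperature of the others. The 2 arrays of a profile, called a and b, have swapped dyes. The methods give 2 separately inoculated cultures for a mutant and 1 for each *pcf11* allele. Beyond these arrays, no spread enters the p-values.

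In yeast, transcription of most mRNAs ends at the cleavage and polyadenylation machinery, of which Pcf11p is a subunit, while transcription of snoRNAs and of cryptic unstable transcripts is ended by the Nrd1-Nab3-Sen1 complex, whose helicase is Sen1p. Ctk1p is the main kinase of Ser2 in the C-terminal domain of RNA polymerase II, and Rtt103p and Pcf11p bind that modified tail. Transcripts ended by the Nrd1-Nab3-Sen1 route are trimmed or destroyed by the nuclear exosome with its exonuclease Rrp6p and the Rrp6p partner Lrp1p. Set2p methylates histone H3 in gene bodies, and the Rpd3S deacetylase, with its subunits Eaf3p and Rco1p, keeps internal promoters silent there. Transcripts from outside annotated genes are therefore of interest in all of these mutants, although a probe without a symbol need not lie outside a gene.

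The probes without a symbol were dimmer than the rest. Their median signal over the arrays, as the mean log2 of both channels, was 7.84 (quartiles 6.54 and 9.5), against 9.26 (8.34 and 10.38) for features with a symbol. In 5 bins of equal size by signal, the dimmest held 509 of them (47.9%) and the brightest 158 (14.9%), so they were not simply dim. By array, 85.4% to 99.7% exceeded the background of the mutant channel, against 96.9% to 99.8% of features with a symbol. Of the 1062, 967 exceeded background in a channel on all 22 arrays. Their 2 spots differed little, with a median SD of 0.0319 on the log2 scale, against 0.0348 for probes with a symbol. The correlation of arrays a and b across these probes ran from 0.592 in *set2*Δ to 0.970 in *ctk1*Δ, and from 0.516 to 0.966 across features with a symbol. The deleted gene had a log2 ratio of −4.06 to −2.46 in every deletion profile.

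A change was called at an adjusted p under 0.05 (limma with Benjamini-Hochberg adjustment over all features of the profile) and a fold change over 1.7. In at least 1 of the 12 profiles, 283 probes without a symbol changed (26.6%), and 779 changed in none. Of features with a symbol 1075 changed (20.2%). Outside the blocks of near-identical probes described further on, the shares were 19.3% (185 probes) and 19.9%, and the excess was not seen there. The rule for these blocks asks for a spread of ratios, and 98 of their 101 probes changed. Leaving them out therefore lowers the share by construction. All profiles share the reference, so the values of the profiles are set side by side and their overlaps are not counted.

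The probes without a symbol rose most often in the mutants of Ser2 phosphorylation and of both termination routes. The near-identical blocks held from 49.6% (*ctk1*Δ) to 80.0% (*pcf11-ts2*) of the rises of such a profile. In *ctk1*Δ, 139 rose (13.1%), where 7.28% of all features rose, and 13 fell, where 2.84% of all features fell. In *ctk1*Δ in YPD, 149 rose (all features 6.79%) and 19 fell (2.70%). In *rpb1-S2A*, 145 rose (all features 7.23%) and 28 fell (5.16%). In *sen1-1*, 125 rose (all features 5.21%) and 12 fell (1.29%). In *pcf11-2*, 111 rose (all features 5.54%) and 15 fell (all features 2.09%). In *pcf11-ts2*, 80 rose (all features 3.17%) and 8 fell (all features 0.863%). With median centring 61 rose in *pcf11-2* and 51 in *pcf11-ts2*. The median log2 ratio of those that rose lay between 0.99 in *pcf11-ts2* and 1.54 in *ctk1*Δ in YPD. Over all 1062 probes the median stayed near 0 in these 6 profiles, between −0.007 and 0.029, so the rises were those of a minority.

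In the exosome mutants the numbers were smaller. In *rrp6*Δ, 50 rose (4.71%), where 1.63% of all features rose, and 2 fell (all features 0.596%). In *lrp1*Δ, 32 rose (3.01%), where 0.973% of all features rose, and 1 fell (all features 0.282%). A rise was also rare among features with a symbol, with 54 of 5311 in *rrp6*Δ and 30 in *lrp1*Δ. That was so in *eaf3*Δ (28), *rco1*Δ (37) and *rtt103*Δ (6) as well.

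In the mutants of Set2p, the Rpd3S complex and Rtt103p, few of them changed. Percentages in brackets are those of all features. In *set2*Δ, 15 rose (all features 1.35%) and 5 fell (0.267%), but 26 rose and 12 fell without replicate b. In *eaf3*Δ, 7 rose (0.549%) and 2 fell (0.235%), and 12 rose without replicate b. In *rco1*Δ, 12 rose (0.769%) and none fell in limma's test, where 0.141% of all features fell. At an unadjusted p under 0.05, 109 had a lower and 219 a higher ratio. The absence of called falls did not hold without replicate b. In *rtt103*Δ, 2 rose (0.126%) and 13 fell (1.15%), and 36 fell without replicate b. The direction of these counts depends on the baseline: against the mean of the other profiles, *set2*Δ had 4 rises and 45 falls, *eaf3*Δ 2 rises and 12 falls, and *rco1*Δ 3 rises and 7 falls. Falls then also outnumbered rises in *rrp6*Δ (34 rose, 56 fell), *lrp1*Δ (26 and 40) and *pcf11-ts2* (6 and 18). In *rtt103*Δ, where falls had led against the reference too, 2 rose and 65 fell. Rises still led in *ctk1*Δ in either medium, *rpb1-S2A*, *sen1-1* and *pcf11-2*.

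Because these probes are dimmer, the shares were also set against features with a symbol weighted to the same bins of signal. At matched signal, 6.88% of features with a symbol rose in *ctk1*Δ, 5.56% in *ctk1*Δ in YPD, 6.03% in *rpb1-S2A*, 4.78% in *sen1-1*, 5.16% in *pcf11-2* and 2.52% in *pcf11-ts2*. All of these shares lie below those of the probes without a symbol. Outside the near-identical blocks this turned for both *pcf11* alleles, and the gap nearly vanished in *ctk1*Δ. Outside the blocks the gap also shrank in *sen1-1* (5.41% against 4.84%), *rpb1-S2A* (6.56% against 5.95%) and *ctk1*Δ in YPD (6.66% against 5.51%). In *rrp6*Δ and *lrp1*Δ, 1.26% and 1.05% of features with a symbol rose at matched signal. For *set2*Δ, *eaf3*Δ, *rco1*Δ and *rtt103*Δ the matched shares were 1.65%, 0.684%, 0.742% and 0.174%, against 1.41%, 0.659%, 1.13% and 0.188% of the probes without a symbol. No test was run on these shares, since features are not replicates.

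**Figure D1:**
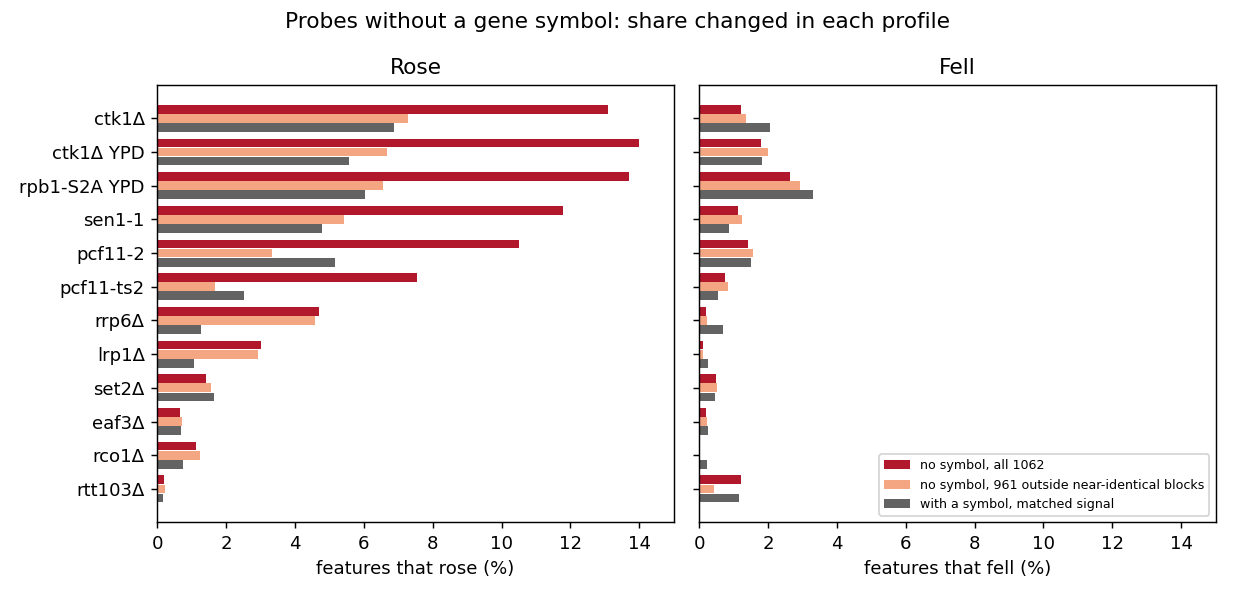
Share of features that rose (left) or fell (right) in each of the 12 profiles, in percent, for all 1062 probes without a symbol, for the 961 outside the near-identical blocks, and for features with a symbol weighted to the same signal. In *ctk1*Δ the share that rose was 13.1% of all probes without a symbol and 7.28% outside the blocks, against 6.88% at matched signal; in *rrp6*Δ it was 4.71%, 4.58% and 1.26%.

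The rises of *ctk1*Δ and *sen1-1* were not spread evenly over signal. In the brightest bin 69 of 158 probes without a symbol rose in *ctk1*Δ (43.7%), against 5.02% of features with a symbol. In the dimmest bin 21 of 509 rose (4.13%), which is below the 7.83% of features with a symbol. In *sen1-1* the same bins gave 43.7% and 4.13%, against 3.23% and 6.01%. The exosome mutants had the opposite arrangement. In *rrp6*Δ, 34 of the 50 probes that rose were in the dimmest bin, where 6.68% rose against 1.7% of features with a symbol, and 2 were in the brightest. In *lrp1*Δ, 27 of 32 were in the dimmest bin, where 5.3% rose against 1.83% of features with a symbol.

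**Figure D2:**
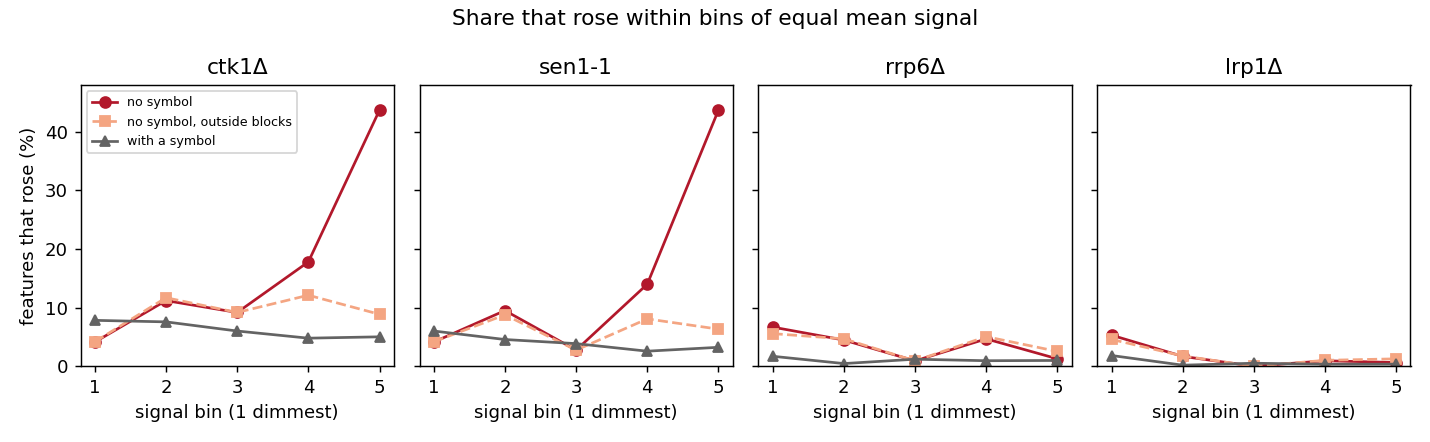
Percent of features that rose within 5 bins of equal size by mean signal (1 is the dimmest), for *ctk1*Δ, *sen1-1*, *rrp6*Δ and *lrp1*Δ. The share of probes without a symbol reached 43.7% in the brightest bin of *ctk1*Δ and *sen1-1*, and outside the near-identical blocks it did not; in *rrp6*Δ and *lrp1*Δ it was highest in the dimmest bin.

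The bright rises came from a few blocks of probes that gave almost the same ratio on every array. Features were joined where their ratios had a Pearson correlation over 0.98 and a root mean square difference under 0.2 over the 22 arrays, which share the reference, and an SD over 0.3. By this rule, set after the values were seen, 7 blocks of 5 or more features held 101 of the 1062 probes and 23 features with a symbol. Counting pairs as well, 137 probes without a symbol (12.9%) were near-identical to at least 1 other feature, against 65 features with a symbol (1.22%), and 119 of the 137 were near-identical to one with a symbol. The probes of a block are not separate measurements of separate transcripts.

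The largest block held 37 probes without a symbol and 7 named features, of which YDR098C-B, YDR210C-D, YDR261C-D, YGR161C-D and YPR158C-D are reading frames of Ty retrotransposons, mobile elements with many near copies in the genome. It was among the brightest on the array, with a median signal of 15.01. The median of its 37 probes was 1.25 and 1.09 on arrays a and b of *ctk1*Δ, 1.51 and 2.06 in *ctk1*Δ in YPD, and 2.05 and 1.98 in *rpb1-S2A*. It was 1.25 and 1.16 in *sen1-1*, 1.21 on the array of *pcf11-2* and 0.94 on that of *pcf11-ts2*. All 37 rose in each of these 6 profiles. In the other 6 none was called, but most saturated probes lie there. The range within the block was narrow: 1.04 to 1.47 in *ctk1*Δ. Of these 37 probes, 25 were saturated on at least 1 array. Of all 1062, 37 and 35 were saturated on the arrays of *rtt103*Δ, up to 15 on an array of the other profiles without a rise, and at most 1 on an array of the 6 with one. The 12 probes of the block that were saturated on no array, chosen after the values were seen, had fitted ratios of −0.07 to 0.41 in the 6 profiles without a rise, and medians from 1.00 in *pcf11-ts2* to 1.99 in *rpb1-S2A* in the others.

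A second block held 27 probes without a symbol with YPR158W-A and YDR210C-C, which encode the Gag protein of Ty elements. Its medians were 2.36 and 2.16 on the arrays of *sen1-1*, 1.95 in *pcf11-2*, 0.97 in *pcf11-ts2*, 1.25 and 1.79 in *ctk1*Δ in YPD, 1.52 and 1.43 in *rpb1-S2A* and 0.64 and 0.85 in *ctk1*Δ. The order therefore differed from that of the largest block: the fitted median was 2.25 in *sen1-1* and 0.75 in *ctk1*Δ, where 10 of the 27 were called, while all 27 were called in the other 5 of these profiles. In *rtt103*Δ it was −0.75, and 5 fell. In *set2*Δ the arrays disagreed, with −0.60 and 0.02.

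A block of 7 probes with YDR210W-B and YFL002W-B, also Ty reading frames, had medians of 1.94 and 1.90 in *ctk1*Δ and 2.39 and 1.79 in *sen1-1*, but 0.91 and 0.92 in *ctk1*Δ in YPD and 0.54 in *pcf11-2*. All 7 rose in *ctk1*Δ and *sen1-1*, and none in either *pcf11* allele.

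A block of 15 probes went with YRF1-5, YRF1-7 and YIL177C, helicase genes of the subtelomeric Y' elements. Its median was 2.65 and 2.50 on the arrays of *ctk1*Δ in YPD, 1.46 and 1.34 in *ctk1*Δ, 1.25 and 1.08 in *rpb1-S2A* and 0.82 in *pcf11-2*. All 15 rose in these profiles. In *sen1-1* the fitted median was 0.28 and none was called, which sets this block apart from the Ty blocks. Of the small blocks, 4 probes with YHL049C fell in *rtt103*Δ, where their median was −1.34 and −1.09, and 5 probes with PAU1, PAU5, PAU8 and PAU16, seripauperin cell wall genes, had a median of 0.73 in *sen1-1*, where 2 were called.

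**Figure D3:**
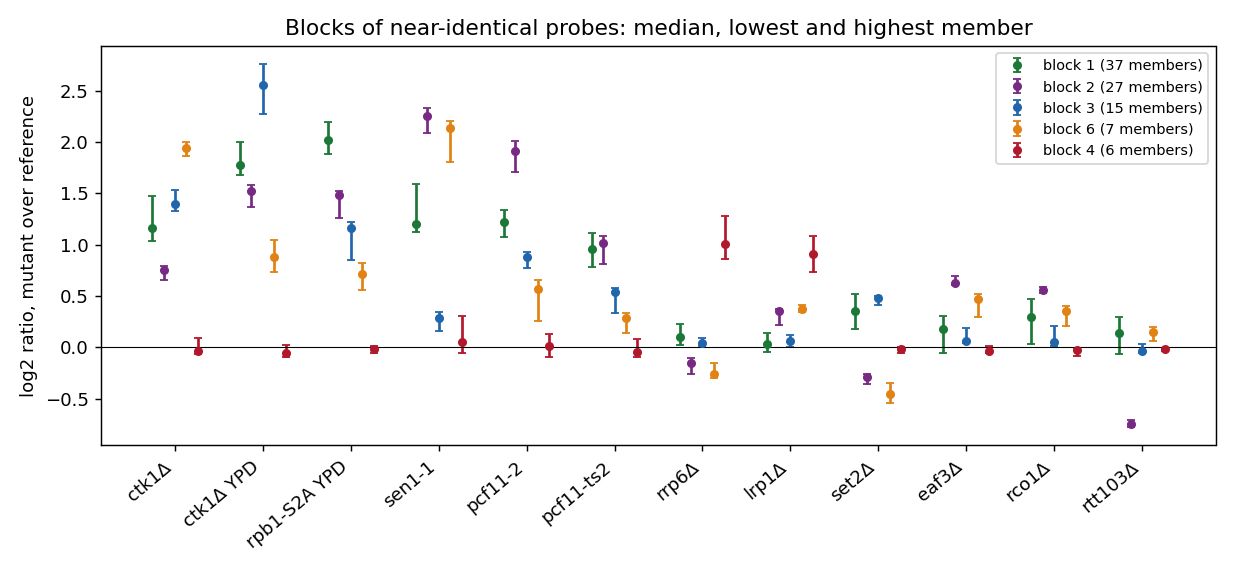
Log2 ratio of mutant over reference for 5 blocks of near-identical probes in each profile; points are the median of the fitted values of the probes without a symbol in the block, bars their lowest and highest. The 37 probes of block 1 rose in 6 profiles, from 0.96 in *pcf11-ts2* to 2.02 in *rpb1-S2A*, and the 6 probes of block 4 only in *rrp6*Δ (1.01) and *lrp1*Δ (0.91, 4 of 6 called).

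Without the 7 blocks the counts of rises changed in 6 profiles and hardly in the others. In *ctk1*Δ 70 of 961 probes rose (7.28%), in *ctk1*Δ in YPD 64 (6.66%), in *rpb1-S2A* 63 (6.56%), in *sen1-1* 52 (5.41%), in *pcf11-2* 32 (3.33%) and in *pcf11-ts2* 16 (1.66%). At matched signal and without the blocks, the shares of features with a symbol were 6.97%, 5.51%, 5.95%, 4.84%, 5.09% and 2.45%. In both *pcf11* alleles the probes without a symbol thus rose less often than features with a symbol, and in *ctk1*Δ the shares were close. In *sen1-1*, *rpb1-S2A* and *ctk1*Δ in YPD the gap was smaller than with the blocks. Blocks were formed from features with a spread of ratios, so leaving them out tends to lower these shares by construction. The blocks thus held 49.6% of the rises of *ctk1*Δ, 58.4% of those of *sen1-1* and 80.0% of those of *pcf11-ts2*. In *rrp6*Δ 44 rose (4.58%) and in *lrp1*Δ 28 (2.91%), against 1.08% and 0.844% of features with a symbol at matched signal. In *rtt103*Δ 4 fell in place of 13.

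The 6 profiles in which the largest block rose are also those in which *LYS2*, a lysine synthesis gene and a common auxotrophic marker, rose: 3.13 in *ctk1*Δ, 2.06 in *ctk1*Δ in YPD, 3.02 in *pcf11-2*, 2.93 in *pcf11-ts2*, 2.71 in *rpb1-S2A* and 2.82 in *sen1-1*. In the other 6 profiles *LYS2* lay between −0.19 and 0.06. *MET17*, a methionine synthesis gene and another auxotrophic marker, had −4.88 in *pcf11-2*, −4.56 in *pcf11-ts2*, −4.90 in *sen1-1* and −3.99 in *rpb1-S2A*, but 0.35 in *ctk1*Δ. All strains are labelled BY4742 background, and the part that a strain difference has in the rises of the blocks was not tested.

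**Figure D4:**
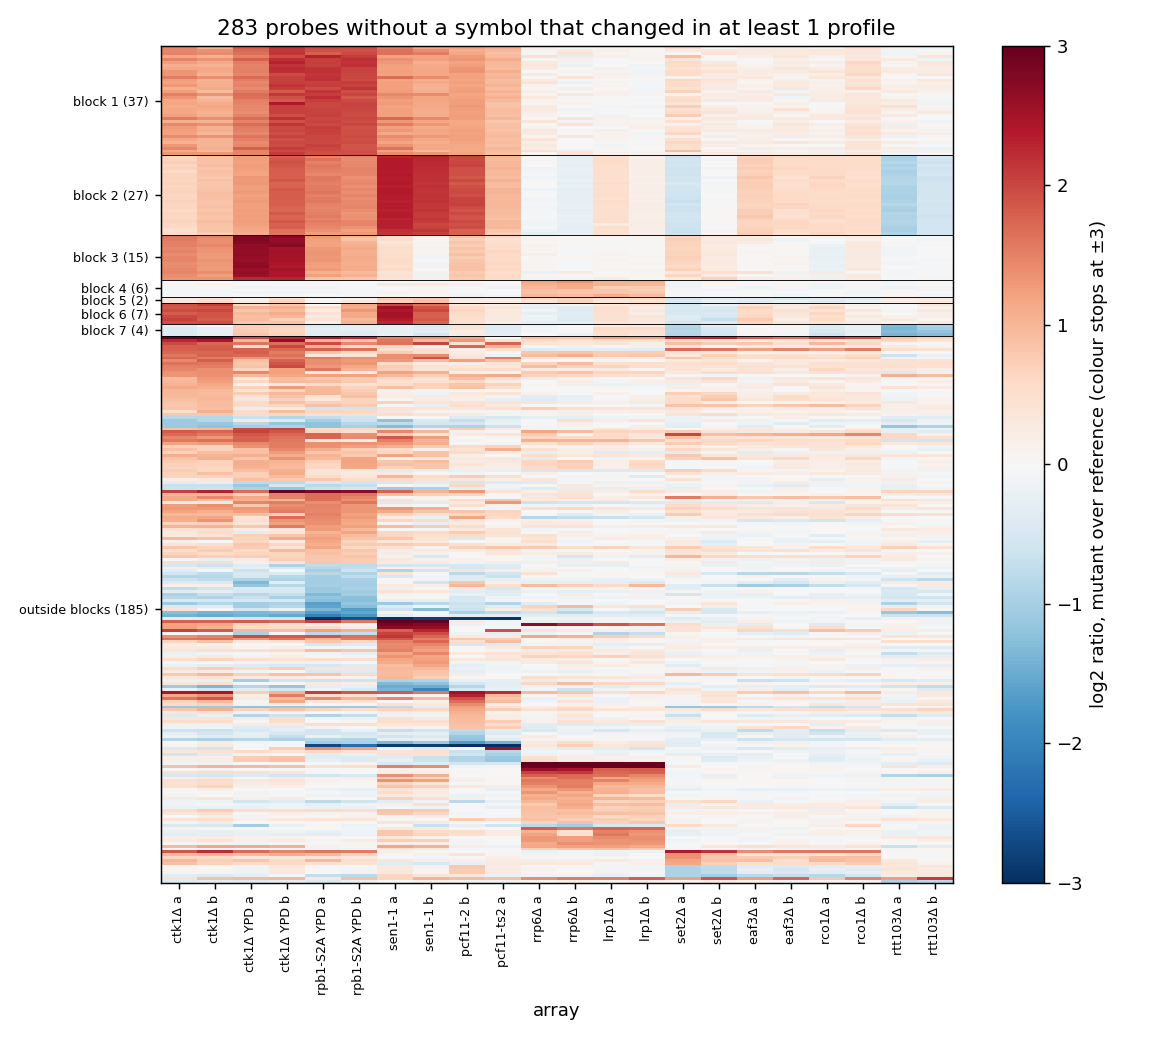
Log2 ratio of the 283 probes without a symbol that changed in at least 1 profile (rows) on the 22 arrays (columns), with red above and blue below the reference. Rows are ordered by block, then by the profile with the largest change; the 98 probes of the blocks form uniform bands, and the 185 others hold smaller sets with their largest change in 1 or 2 mutants.

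The probe with the largest rise was SCAB004523. It had 4.38 and 5.39 on the arrays of *rrp6*Δ and 4.37 and 5.03 on those of *lrp1*Δ. On the other 18 arrays it lay between −0.57 and 0.14, so the 2 exosome mutants stand apart from all others. The fitted ratios were 4.88 (standard error 0.15, limma adjusted p = 1.24e-10), a fold change of 29.5, and 4.70 (0.15, 2.95e-10). The named feature most alike over the 22 arrays was *ECM12* (r = 0.971), which rose far less, by 1.47 in *rrp6*Δ and 1.10 in *lrp1*Δ.

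Other probes had the same arrangement at lower signal. One of mean signal 6.84 had 3.56 and 3.42 in *rrp6*Δ and 3.39 and 3.33 in *lrp1*Δ, and also rose in *sen1-1* (1.46) and *ctk1*Δ (0.97). Its most alike named features were YBL071C (r = 0.989) and *SNR10* (r = 0.981), a gene for an H/ACA snoRNA. Another, of signal 6.41, had 2.61 and 2.46 in *rrp6*Δ and 1.83 and 1.84 in *lrp1*Δ. A block of 6 probes near-identical to *ECM12*, *IRC13*, YBR144C and YER181C had a median of 1.00 and 1.03 in *rrp6*Δ and 0.92 and 0.87 in *lrp1*Δ. RNA for both mutants was extracted by the standard protocol. So was that of *set2*Δ, *rtt103*Δ and *ctk1*Δ in YPD, in which this block had medians of −0.02, −0.02 and −0.06. Array a of *rpb1-S2A*, with −0.04, had this protocol too. The part that the protocol has in these rises was not tested.

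**Figure D5:**
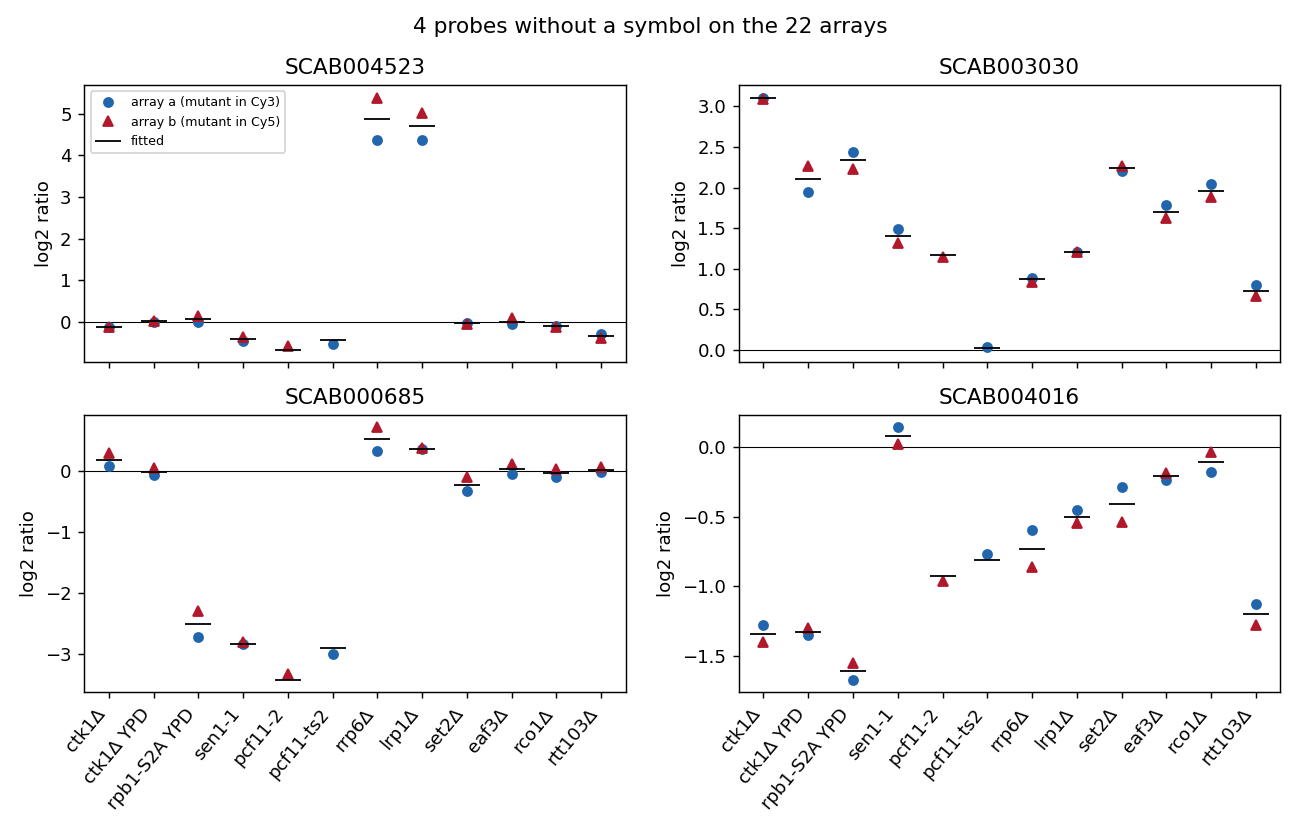
Log2 ratio of mutant over reference of 4 probes without a symbol in the 12 profiles; circles and triangles are single arrays and dashes the fitted values. SCAB004523 is high only in *rrp6*Δ and *lrp1*Δ (4.37 to 5.39), SCAB000685 is low only in *rpb1-S2A*, *sen1-1* and the *pcf11* alleles (−3.33 to −2.29), and the other 2 changed in many profiles.

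SCAB003030 was called higher in the most SC profiles, 8 of 10. It had 3.11 and 3.09 on the arrays of *ctk1*Δ. In *set2*Δ its ratios were 2.20 and 2.27, and the arrays of *rco1*Δ gave 2.04 and 1.89 and those of *eaf3*Δ 1.78 and 1.62. It is the largest rise among the probes without a symbol in *ctk1*Δ, *eaf3*Δ and *rco1*Δ. In *rtt103*Δ it had 0.80 and 0.66, which is under the fold minimum, and in *pcf11-ts2* 0.04. The fitted ratio in *ctk1*Δ was 3.10 (standard error 0.07, limma adjusted p = 1.54e-11) and in *set2*Δ 2.24 (0.07, 9.32e-10). The most alike named feature was *HPF1* (r = 0.983), a cell wall mannoprotein gene, with 3.32 in *ctk1*Δ and 2.29 in *set2*Δ.

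Other probes also led in the Set2p and Rpd3S mutants. One had 2.39 and 2.19 in *set2*Δ, 1.60 on both arrays of *rco1*Δ and, on those of *eaf3*Δ, 1.41 and 1.58, with *PCA1*, a cadmium-transporting ATPase gene, as the most alike feature (r = 0.973). The *PCA1*-like probe also rose in *ctk1*Δ (fitted ratio 2.05), *ctk1*Δ in YPD (1.60) and *rpb1-S2A* (1.58), but had 0.10 in *sen1-1*. Another had 1.69 and 1.60 in *set2*Δ, while *rco1*Δ gave 1.25 and 1.57. It rose as much in *ctk1*Δ (1.81), *ctk1*Δ in YPD (1.75) and *rpb1-S2A* (1.72), but had 0.48 in *sen1-1*, under the fold minimum. A further probe rose in 8 SC profiles as well and had its highest value, 1.25 and 2.10, in *rtt103*Δ, where the arrays differed. Its ratio in *ctk1*Δ was 0.66, under the fold minimum.

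In *sen1-1* the largest rise was of a probe with 4.05 and 4.14 on the 2 arrays. It also had fitted ratios of 1.79 in *ctk1*Δ, 1.75 in *ctk1*Δ in YPD and 1.82 in *rpb1-S2A*, and of 0.30 and −0.13 in the *pcf11* alleles. *REC104*, a meiotic recombination gene, was the most alike (r = 0.968), with 3.28 in *sen1-1* and 1.53 in *ctk1*Δ. A probe of signal 11.72 rose in 7 SC profiles, with 2.42 and 2.44 on the arrays of *ctk1*Δ, and 2.54 and 2.23 on those of *pcf11-2* and *pcf11-ts2*, and its most alike features were the lysine synthesis genes *LYS1* (r = 0.894) and *LYS2* (r = 0.884). In *pcf11-ts2* the largest rise was of a probe at 2.54 on its array, most like *PHO12*, an acid phosphatase gene (r = 0.984, and 2.25 in that profile). In *pcf11-2* a probe near-identical to *HXT6*, a hexose transporter gene (r = 0.999), had 2.31.

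SCAB000685 had the largest fall. It had −3.33 on the array of *pcf11-2*, −3.0 on that of *pcf11-ts2*, −2.84 and −2.81 in *sen1-1* and −2.72 and −2.29 in *rpb1-S2A*. On all other arrays it lay between −0.33 and 0.72, with no overlap. The fitted ratio in *pcf11-2* was −3.42 (standard error 0.10, limma adjusted p = 9.09e-11) and in *sen1-1* −2.83 (0.07, 2.71e-12). It was near-identical to *MATALPHA1*, the activator of alpha-specific genes (r = 0.999, −3.26 and −2.76 in these profiles). A second probe, most like *MATALPHA1* too (r = 0.970), had −2.90, −2.93, −3.03 and −2.79 on the *pcf11* and *sen1-1* arrays and −3.75 and −2.63 in *rpb1-S2A*. The alpha-specific receptor gene *STE3* had −4.04, −4.45, −4.22 and −3.84 in *pcf11-2*, *pcf11-ts2*, *sen1-1* and *rpb1-S2A*, the a-specific receptor gene *STE2* 4.32, 4.53, 4.61 and 3.84, and mating type and mutation cannot be told apart in these 4 strains.

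SCAB004016 and another probe fell in the most SC profiles, 4 of 10, and SCAB004016 had the larger mean change. SCAB004016 had −1.28 and −1.40 in *ctk1*Δ, −1.13 and −1.28 in *rtt103*Δ, −0.96 in *pcf11-2* and −0.77 in *pcf11-ts2*. In *rpb1-S2A* it had −1.67 and −1.55, and in *sen1-1* 0.14 and 0.02. The fitted ratio in *ctk1*Δ was −1.34 (standard error 0.07, limma adjusted p = 9.09e-09). No named feature was near-identical to it, and *RRG1* was the most alike (r = 0.938). The largest fall in *ctk1*Δ, −1.42 and −1.52, was of a probe near-identical to *KTR3*, a mannosyltransferase gene (r = 0.993), which had −1.46. In *eaf3*Δ the larger of the 2 falls, −1.06 and −0.97, was of a probe near-identical to *CUP1-2*, a metallothionein gene (r = 0.996).

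Most of the other probes with the largest rises in a profile had several named features about equally alike. In *ctk1*Δ the largest rise after the *LYS1*-like probe was 2.27 and 2.45, with the seripauperin gene *PAU7* (r = 0.950) and *PAI3* (r = 0.949) the most alike. In *sen1-1* the next rise was 2.85 and 2.74, of a probe most like *GAT4* (r = 0.942), which itself had only 0.52 there. That probe also rose in *rrp6*Δ (fitted ratio 2.50), *lrp1*Δ (1.77) and *ctk1*Δ (1.18). After it came 2.69 and 2.64 in *sen1-1*, of a probe most like *HEM4*, a heme synthesis gene (r = 0.955). *SEN2*, a tRNA splicing endonuclease gene, was about as alike to it (r = 0.954). In *rpb1-S2A* the largest was 2.80 and 2.71, most like YET3, with *GRX1*, a glutaredoxin gene, next (r = 0.960). On the array of *pcf11-ts2* a probe most like YGR109W-A, a Ty3 Gag reading frame (r = 0.964), had 1.91. Its fitted ratio was 1.95 in *ctk1*Δ and 2.04 in *sen1-1*, but 0.04 in *pcf11-2*. In *rtt103*Δ the lesser of the 2 rises was 1.09 and 0.96, most like the isocitrate dehydrogenase gene *IDP2* (r = 0.933).

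The largest falls in *set2*Δ and in the exosome mutants were mostly smaller than those above. In *set2*Δ they were −1.16 and −1.10 for a probe near-identical to YIL014C-A (r = 0.989), −0.92 and −1.05 for one near-identical to *SOR2*, a sorbitol dehydrogenase gene (r = 0.993), and −0.95 and −0.76 for one near-identical to *THI11*, a thiamine synthesis gene (r = 0.993). In *rrp6*Δ one fall was −0.81 and −1.05, most like the stress gene *DDR48* (r = 0.924), and the other −0.85 and −0.74, most like the hexose transporter gene *HXT5* (r = 0.956). The only fall in *lrp1*Δ was −0.91 and −0.70, most like *IMD2* (r = 0.925). In *sen1-1* the largest fall after the *MATALPHA1*-like probes was −1.40 and −1.97.

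Contrasts between 2 profiles, in which the reference cancels, were tested in the same fit. Between *ctk1*Δ and *sen1-1*, 49 probes without a symbol were higher in *ctk1*Δ (3.88% of all features were) and 51 lower (3.53%). Without the blocks these were 34 (3.54%) and 24 (2.5%), against 3.69% and 3.25% of features with a symbol. The highest in *ctk1*Δ were the *MATALPHA1*-like probes, with SCAB000685 at a difference of 3.02 (standard error 0.10, limma adjusted p = 1.59e-10), and the lowest the *REC104*-like probe, at −2.30. Next came the probe most like *IMD2*, an IMP dehydrogenase gene, with −0.06 in *ctk1*Δ and 1.98 in *sen1-1*.

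Between *ctk1*Δ and *set2*Δ, 118 were higher in *ctk1*Δ (all features 5.10%) and 10 lower (1.85%). Without the blocks these were 46 (4.79%) and 10 (1.04%), against 3.67% and 2.04% of features with a symbol. The 2 largest differences, 2.48 and 2.45, were of probes of the block with YDR210W-B. Between *rrp6*Δ and *lrp1*Δ, none of the 1062 differed in limma's test, where 0.0628% of all features were higher and 0.0628% lower. At an unadjusted p under 0.05, 94 did (8.85%, against 6.53% of all features), and the differences ran from −0.70 to 0.73.

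Between *ctk1*Δ in YPD and in SC, 43 were higher in YPD (all features 1.52%) and 14 lower (1.22%). With median centring these were 21 and 13, and with the deposited ratios 31 and 17. Without the blocks 4 were higher (0.416%) and 7 lower (0.728%), so most of the difference lay in the blocks. Of features with a symbol outside the blocks, 0.927% were higher and 1.17% lower. The count was 33 without *ctk1*Δ replicate a, 32 without its replicate b and 90 without *ctk1*Δ YPD replicate a. Without YPD replicate b, 24 were higher and 24 lower.

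Between *rpb1-S2A* and *ctk1*Δ in YPD, 4 were higher in *rpb1-S2A* (all features 0.549%) and 33 lower (1.43%). Without the blocks these were 4 (0.416%) and 14 (1.46%), against 0.586% and 1.02% of features with a symbol. Without *ctk1*Δ YPD replicate b, 14 were higher and 33 lower. The 2 largest falls were the *MATALPHA1*-like probes, with differences of −2.64 and −2.50. Between *pcf11-2* and *pcf11-ts2*, 4 were higher in *pcf11-2* (all features 0.455%) and 6 lower (0.643%), with 1 array each. With the deposited ratios these were 19 and 8. SCAB003030 differed by 1.15 (standard error 0.15, limma adjusted p = 0.00124), with fitted ratios of 1.17 and 0.02, and the *PHO12*-like probe by −2.44.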

How the data were processed

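RNA of 12 mutant profiles was compared with a common wild type reference on 22 arrays of 2 colours. The authors deposited scanner intensity values per spot and channel, before normalization. A deposited table holds log2 ratios after the authors' own normalization and removal of dye bias. The submitters' processing notes name limma (version 2.12.0 for 6 arrays). Of its columns 6 were turned to mutant over reference.

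Intensities were corrected by normexp with an offset of 50, which understates the change of dim probes, and normalized by loess per array in limma 3.58.1 (R 4.3.3). Both spots of a probe and all probes of a named gene were averaged. A model with 12 profiles and a dye term was fitted over all arrays (residual degrees of freedom 9, prior 3.7). Arrays with the letter a have the mutant in Cy3 and b in Cy5, so the dye term is the replicate block. Deviations of 45 pairs of profiles between letters correlated from −0.361 to 0.763. The dye effect was not removed from these deviations, so a pairing by letter beyond the dye was not tested. The reference counts as 1 control sample, which leaves out the spread of wild type cultures. The fit was tested on simulated data. Array number limits the precision, and spots at 65000 or more were taken as saturated.

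Members and lists were chosen with earlier results of these data known. Named were, per profile, the 3 largest rises and falls called with the same sign on every array, the 10 called in the most SC profiles, and 2 per direction in each contrast. Of probe IDs, 2 that rose and 2 that fell are printed, for each direction the largest change and the one called in the most SC profiles. A planned comparison with neighbouring genes was not made, because the probes were not placed in the genome here. Alternatives were the background correction, centring, the deposited ratios, a filter on dim probes, the fold minimum, the replicate block, each array left out, the baseline, the signal bins and, chosen after seeing the data, leaving out the near-identical blocks (networkx) or the saturated probes of the largest.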

Additional observations from a re-analysis of the deposited data

Results flagged for a closer look

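In the contrast of *ctk1*Δ in YPD with *ctk1*Δ in SC, 43 probes without a symbol were higher in YPD (1.52% of all features were) and 14 lower (1.22%), 57 in all. Of these, 11 lie outside the near-identical blocks, and the count ran from 32 to 90 with 1 array left out. Outside the blocks 0.416% were higher in YPD and 0.728% lower, against 0.927% and 1.17% of features with a symbol. The largest differences were 1.88 and 1.25 on the log2 scale towards YPD and −1.55 and −1.27 towards SC. The first was of a probe with 1.49 in YPD and −0.38 in SC, and the second of a probe of the block most like YRF1-7, with 2.71 and 1.46. The third was of the probe most like *LYS1*, with 0.88 and 2.43, and the fourth of a probe of the block with YDR210W-B, with 0.73 and 2.0. The YPD arrays also differ from the SC arrays of this mutant in the RNA extraction protocol, so medium and protocol cannot be told apart. Both profiles have the same wild type reference. A response of any strain to the medium therefore cannot be told apart from one particular to the deletion.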

How the results depend on the processing

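With no fold minimum, 173 probes without a symbol changed in *eaf3*Δ, 212 in *rco1*Δ, 272 in *set2*Δ, 605 in *ctk1*Δ, 580 in *ctk1*Δ in YPD, 256 in *lrp1*Δ, 385 in *pcf11-2*, 219 in *pcf11-ts2*, 579 in *rpb1-S2A*, 343 in *rrp6*Δ, 203 in *rtt103*Δ and 577 in *sen1-1*, and 398, 391, 9, 182, 120 and 36 in the contrasts, in the order of the report. Against the mean of the other profiles in place of the reference, 14 changed in *eaf3*Δ, 49 in *set2*Δ, 56 in *ctk1*Δ, 109 in *ctk1*Δ in YPD, 66 in *lrp1*Δ, 59 in *pcf11-2*, 24 in *pcf11-ts2*, 94 in *rpb1-S2A*, 90 in *rrp6*Δ, 67 in *rtt103*Δ and 71 in *sen1-1*, and falls outnumbered rises in *eaf3*Δ, *rco1*Δ, *set2*Δ, *lrp1*Δ, *rrp6*Δ and *pcf11-ts2*, where rises had led. Median centring gave 78 in *pcf11-2*, 57 in *pcf11-ts2* and 34 between the media of *ctk1*Δ. Leaving out the blocks gave 83 in *ctk1*Δ in either medium, 47 in *pcf11-2*, 24 in *pcf11-ts2*, 91 in *rpb1-S2A*, 6 in *rtt103*Δ and 64 in *sen1-1*. Between the *pcf11* alleles, 27 changed with the deposited ratios and 17 with SC arrays only. With single arrays left out, the counts of both directions together ran from 10 to 15 in *eaf3*Δ, 16 to 38 in *set2*Δ, 11 to 39 in *rtt103*Δ, 0 to 2 between *rrp6*Δ and *lrp1*Δ and 32 to 90 between the media, and these totals moved by under 1.5 times elsewhere. By direction, the number higher in *rpb1-S2A* than in *ctk1*Δ in YPD went from 4 to 14, and the falls in *rco1*Δ from 0 to 2, in *lrp1*Δ from 1 to 0, in *rrp6*Δ from 2 to 0 and in *eaf3*Δ from 2 to 1. The cause of these shifts was not tested, except that the fold minimum and the blocks remove probes by construction. These counts are given here without the share of all features under the same settings. They show only how the counts depend on the processing, not whether the probes without a symbol differ from the rest. With no replicate block, 152 changed in *ctk1*Δ and 121 in *pcf11-2*, and no count moved by over 1.5 times. Of 72 shares of features with a symbol at matched signal, none moved by more than its counting interval with 10 bins, reference signal or without the blocks. Of 864 values of single probes under the alternatives, 842 kept their direction and side of the threshold, 22 kept only the direction, 14 of them against the mean of the other profiles, and none reversed. These probes were chosen for being called, those of the profiles with the same sign on every array. Dropping the fold minimum could not undo a call, and probes without a symbol are single probes with or without averaging. The 842 are therefore no independent check. Each profile has 1 or 2 arrays, the *pcf11* alleles are assumed to vary like the others, and the dimmest probes lie near background.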
